A study of Mus musculus with 6 samples.

Results

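The 10 genes described here, *Zfp42*, *Tfcp2l1*, *Tbx3*, *Gbx2*, *Utf1*, *Nr0b1*, *Nr5a2*, *Fbxo15*, *Tcl1* and *Tdh*, are expressed in naive mouse embryonic stem cells (mESC) alongside the core factors OCT4, SOX2 and NANOG. They were picked by name from the 22380 gene identifiers of the RNA-Seq files, after matching Ensembl identifiers to mouse symbols, and 10 of the 10 were found. RNA came from 3 *Ctrl* lines and 3 *Tet iTKO* lines, with a separate embryo behind each line, to ask how deleting the TET dioxygenases changes gene expression. All 6 lines carried the genotype CreERT2 wt/ki together with Gt(ROSA)26Sor<tm1Ytchn>/J wt/ki, a Cre-dependent H2B-EGFP reporter, and the *Tet iTKO* lines were in addition homozygous for floxed *Tet1*, *Tet2* and *Tet3*. CreERT2 was driven by the human ubiquitin C promoter, so it was not restricted to a cell type. Both groups received 1 µM tamoxifen for 2.5 days and grew for 4 further days, which makes day 6.5 the time of sampling. The cells were kept on mouse embryonic fibroblast feeders in 2i medium, which holds the inhibitors CHIR99021 and PD0325901, and live cells positive for GFP and for CD326 (EpCAM) and negative for Thy1.2 were sorted. The paper's legend to its RNA-Seq plot also lists the sorted cells as positive for SSEA1. Each line is a population from 1 embryo, and other times or untreated lines were not analysed here.

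Naive pluripotency is the state of the preimplantation epiblast, which mESC keep in culture when MEK and GSK3 are inhibited and LIF activates STAT3. Its transcription factors bind many shared enhancers and maintain one another, and cells that leave the state lower them while formative and primed genes such as *Otx2* come on. TET enzymes oxidize 5-methylcytosine, which in mammals sits mostly at CpG dinucleotides, and thereby open a route to unmethylated DNA at enhancers and promoters. Of the 10 genes, *Zfp42* (REX1) encodes a zinc finger protein long used as a marker of the naive state, *Tfcp2l1*, *Tbx3* and *Gbx2* encode transcription factors that sustain self-renewal downstream of LIF or WNT signals, and *Utf1* encodes a chromatin-associated factor. *Nr0b1* (DAX1) and *Nr5a2* (LRH-1) encode nuclear receptors, *Fbxo15* an F-box protein, *Tcl1* a co-activator of AKT kinases, and *Tdh* the mitochondrial threonine dehydrogenase on which mESC depend.

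In *Tet iTKO* mESC, 4 of the 10 genes fell: *Fbxo15* by 0.50, *Nr0b1* by 0.41, *Zfp42* by 0.35 and *Tbx3* by 0.24 on the log2 scale. None passed the test in the upward direction. *Tfcp2l1*, *Gbx2*, *Utf1*, *Nr5a2*, *Tcl1* and *Tdh* did not pass it, with log2 fold changes from -0.19 to 0.30. No member differed by as much as 1 on the log2 scale, and the mean furthest below *Ctrl*, that of *Fbxo15*, was 70.9% of the *Ctrl* mean. The test was limma, run on the log2 of each normalized count plus 1 for the 10524 genes averaging 10 or more and adjusted over all of them by Benjamini and Hochberg's method, and calls were made at an adjusted p under 0.05. Across all genes tested, 34.8% were called in either direction, 18.4% were called lower and 16.4% higher, against 4 of 10 members called lower and 0 of 10 called higher. By the unadjusted limma p, 6 of the 10 were below 0.05 and lower, and 0 were below 0.05 and higher, against 22.3% and 21.4% of all genes tested. The groups did not overlap for 4 members, *Fbxo15*, *Nr0b1*, *Zfp42* and *Utf1*, each lower in all *Tet iTKO* libraries, whereas they did not overlap for 44.1% of all genes tested. The median log2 fold change of the 10 genes was -0.15, and that of all genes tested was 0.01. With so few members, the share not overlapping lies near that of all genes and the share called lower lies above that of all genes, without a test of either.

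Deposited normalized counts summed to between 4210784 and 4219665 in *Ctrl* and between 3964824 and 3996522 in *Tet iTKO* libraries, and 13431 to 13539 and 14024 to 14363 genes had a value above 0. Within a group no library repeated another, since squared differences exceeded counting noise by factors of 2.60 to 3.49. That noise was reckoned as if the normalized counts were read counts, so the factors are approximate. Counted over the whole gene, *Tet3* stood at -1.67 on the log2 scale (limma adjusted p = 0.035), a call kept in 2 of the 6 fits with a line left out. *Tet1* stood at 0.21 (limma adjusted p = 0.026), a call kept in 4 of these 6 fits, and at -0.02 with the correction for GC content and length introduced next (limma adjusted p = 0.89). *Tet2*, at 0.14, did not pass the test (limma adjusted p = 0.43). These values include reads outside the floxed exons, so they do not check the deletion. Log2 fold changes were related to transcript GC content and length, with Spearman coefficients of 0.258 and 0.293 over 10457 genes, which are not independent replicates. A fold change corrected for both, in which a smooth fit on GC content and log2 length was subtracted from each library, therefore stands beside the deposited one where it alters the call. Because these are bulk samples, fewer cells that express a gene and less RNA per cell cannot be told apart.

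The promoters are shown because CpG dinucleotides are where TET enzymes act and because several of these genes moved in the same direction. RefSeq promoter windows of 300 bases, 250 before and 50 after the start, were matched for 7 of the 10 genes, and *Tbx3*, *Fbxo15* and *Tdh* are named only. The stretches printed here lie upstream of the RefSeq and GENCODE starts, run 5′ to 3′ on the strand of the gene, and carry CpG dinucleotides in capitals. They are from RefSeq on GRCm38.p6. *Nr0b1* and *Zfp42* were among the genes that fell, and *Tfcp2l1* and *Tcl1* stand for those that did not pass the test. This split holds for the deposited values only. Corrected for GC content and length, *Zfp42* did not pass (-0.10, limma adjusted p = 0.49) and *Tfcp2l1* did (-0.44, limma adjusted p = 4.2e-05). The positions of the stretches are chrX:86191525-86191763 for *Nr0b1*, chr8:43307010-43307259 for *Zfp42*, chr1:118627695-118627944 for *Tfcp2l1* and chr12:105222794-105222987 for *Tcl1*.
Nr0b1: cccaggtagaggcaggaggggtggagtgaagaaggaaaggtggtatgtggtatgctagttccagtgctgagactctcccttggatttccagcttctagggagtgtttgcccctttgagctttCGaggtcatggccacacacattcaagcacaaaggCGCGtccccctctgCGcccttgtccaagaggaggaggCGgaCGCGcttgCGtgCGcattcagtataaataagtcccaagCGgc
Zfp42: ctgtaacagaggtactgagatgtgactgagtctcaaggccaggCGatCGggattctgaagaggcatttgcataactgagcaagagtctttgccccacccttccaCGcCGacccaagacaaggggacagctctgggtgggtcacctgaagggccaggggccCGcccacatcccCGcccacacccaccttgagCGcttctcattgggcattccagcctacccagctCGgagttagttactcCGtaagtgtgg
Tfcp2l1: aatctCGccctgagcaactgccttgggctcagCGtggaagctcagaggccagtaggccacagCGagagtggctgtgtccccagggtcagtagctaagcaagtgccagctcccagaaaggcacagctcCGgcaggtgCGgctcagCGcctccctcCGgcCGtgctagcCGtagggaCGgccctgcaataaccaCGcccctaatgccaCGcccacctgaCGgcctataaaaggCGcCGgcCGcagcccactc
Tcl1: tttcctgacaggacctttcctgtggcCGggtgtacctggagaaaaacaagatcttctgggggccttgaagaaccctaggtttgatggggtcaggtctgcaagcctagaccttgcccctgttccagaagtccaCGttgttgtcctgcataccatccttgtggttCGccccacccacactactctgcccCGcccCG
These stretches hold 10, 9, 16 and 5 CpG, in the order printed.

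Over the full windows of 300 bases, *Gbx2* had 27 CpG, *Tfcp2l1* 21, *Utf1* 17, *Nr0b1* 14, *Zfp42* 11 and *Tcl1* 11, and the 2 windows of *Nr5a2* had 7 and 2. The median over all 32851 windows of 27025 genes was 7, so 6 of the 7 matched genes lay above it. *Nr0b1* and *Zfp42*, which fell, had 14 and 11 CpG, within the range of the 5 genes that did not pass the test. With the correction for GC content and length, *Zfp42* lost its call and *Tfcp2l1* and *Utf1* gained one. *Fbxo15* and *Tbx3*, which also fell, have no window here. The octamer ATGCAAAT, the sequence that POU factors such as OCT4 bind, was searched on both strands and occurred in the window of *Zfp42* and in none of the others, against 1.74% of all windows. AAGGTCA, a half-site bound by orphan nuclear receptors including NR5A2 and ESRRB, was in none of the 8 windows on either strand, against 4.72% of all windows. The letters TATAAA were found on either strand in the windows of *Nr0b1* and *Tfcp2l1* and in 1 of the *Nr5a2* windows, against 13.6% of all windows. No window of the 7 genes held more than 1 of these motifs. DNA methylation was not analysed here.

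Among the transcription factors, *Zfp42* stood at 448, 446 and 419 normalized counts among *Ctrl* libraries against 383, 290 and 364 among *Tet iTKO* libraries. All *Tet iTKO* libraries lay below all *Ctrl* libraries, with the second *Tet iTKO* line lowest. The fall was 0.35 on the log2 scale (standard error 0.10, limma adjusted p = 0.0064). Without the second *Tet iTKO* line the log2 fold change was -0.23 and no longer passed (limma adjusted p = 0.11), and with the correction for GC content and length it was -0.10 (limma adjusted p = 0.49). *Zfp42* (ENSMUSG00000051176.5) is annotated on the minus strand of chromosome 8 (GRCm38), from 43295063 to 43306980.

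**Figure D1:**
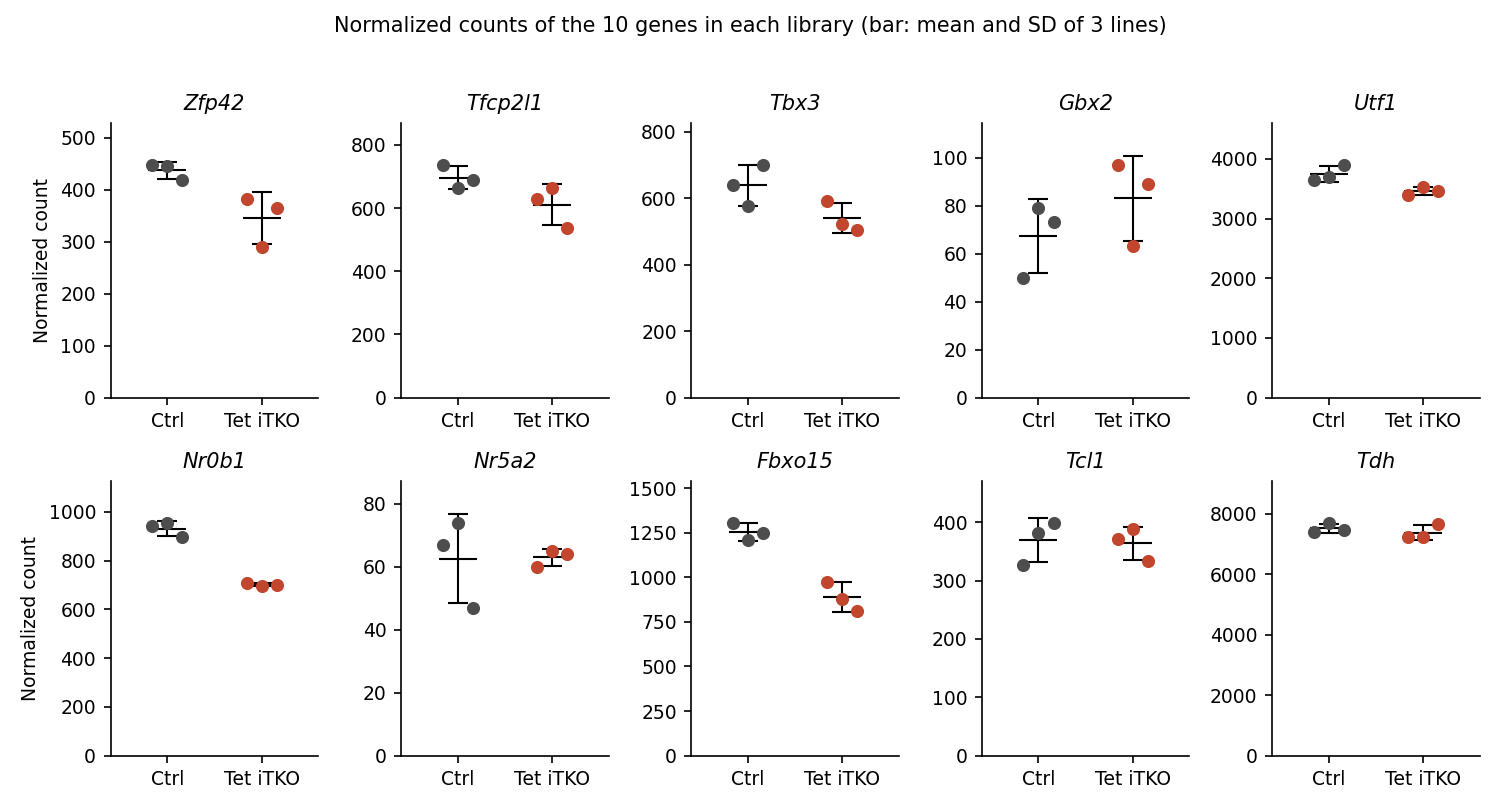
Each panel plots the normalized count of 1 gene on a linear axis from 0, with 1 point per library and a bar for the mean and SD of 3 lines, *Ctrl* in grey and *Tet iTKO* in red. *Zfp42*, *Nr0b1*, *Fbxo15* and *Utf1* have red points that all lie below the grey ones, and in the other 6 panels the groups overlap.

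*Tbx3*, a T-box factor that promotes self-renewal, stood at 639, 577 and 700 normalized counts among *Ctrl* libraries against 591, 523 and 504 among *Tet iTKO* libraries. The groups overlapped, since the first *Tet iTKO* line exceeded the second *Ctrl* line. The fall of 0.24 on the log2 scale (standard error 0.09) had a limma adjusted p of 0.025 with all libraries, but the adjusted p lay between 0.012 and 0.16 with each line left out in turn. Only 2 of these 6 fits made the call, those without *Ctrl* replicate 2 (log2 fold change -0.31) and without *Tet iTKO* replicate 1 (-0.31), and it was lost without *Ctrl* replicate 1 (-0.24), *Ctrl* replicate 3 (-0.17), *Tet iTKO* replicate 2 (-0.22) or *Tet iTKO* replicate 3 (-0.20). After correction for GC content and length it stood at -0.49 (limma adjusted p = 2.2e-05). *Tbx3* (ENSMUSG00000018604.11) lies on chromosome 5 from 119670669 to 119684724. Its annotated exons share 115 bases with *Tbx3os1* on the opposite strand, which is not used here. Smart-Seq2 does not keep the strand, although the authors counted reads by strand, so reads in these bases may stem from either gene.

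*Tfcp2l1*, a grainyhead-like factor downstream of LIF and WNT signals, stood at 737, 664 and 688 normalized counts among *Ctrl* libraries against 630, 665 and 538 among *Tet iTKO* libraries. The groups overlapped by a single count, the second *Tet iTKO* line lying just above the second *Ctrl* line. The log2 fold change was -0.19 (standard error 0.08), and it did not pass the test (limma adjusted p = 0.066). Corrected for GC content and length, it was -0.44 and passed (limma adjusted p = 4.2e-05), and without *Tet iTKO* replicate 2 it was -0.26 and also passed (limma adjusted p = 0.032). At 9269 bases its longest transcript is the longest of the 10 genes. *Tfcp2l1* (ENSMUSG00000026380.9) lies on chromosome 1 from 118627945 to 118685168, and its exons share 130 bases with *Gm23497* on the same strand, which is not used here.

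*Gbx2*, a homeobox gene that acts downstream of LIF and STAT3, was among the lowest of the 10. It stood at 50, 79 and 73 normalized counts among *Ctrl* libraries against 97, 63 and 89 among *Tet iTKO* libraries, with overlapping groups and coefficients of variation of 22.7% and 21.4%. The log2 fold change of 0.30 had a 95% interval from -0.16 to 0.76 and did not pass the test (limma adjusted p = 0.33). *Gbx2* (ENSMUSG00000034486.7) lies on chromosome 1 from 89927956 to 89931179, and the transcript *D130058E05Rik* on the opposite strand, which shares 946 of its 2177 exonic bases, was listed at 0 in all 6 libraries. Reads in the shared bases carry the limit given for *Tbx3*, so the 0 does not show that this transcript is silent.

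*Utf1* stood at 3649, 3700 and 3900 normalized counts among *Ctrl* libraries against 3401, 3533 and 3467 among *Tet iTKO* libraries. The groups did not overlap, and the replicates differed little, with coefficients of variation of 3.54% and 1.90%. The log2 fold change was -0.11 (standard error 0.05), with a 95% interval from -0.21 to -0.02, and it missed the threshold after adjustment (limma adjusted p = 0.056). It passed with the correction for GC content and length (-0.13, limma adjusted p = 0.028) and without *Ctrl* replicate 1 (-0.13, limma adjusted p = 0.036), and turned to 0.045 with quantile normalization (limma adjusted p = 0.46). *Utf1* (ENSMUSG00000047751.8) lies on chromosome 7 from 139943789 to 139945112.

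The nuclear receptors differed from each other. *Nr0b1*, which lacks a classical DNA-binding domain and binds OCT4 and NR5A2, stood at 943, 955 and 896 normalized counts among *Ctrl* libraries against 708, 695 and 699 among *Tet iTKO* libraries. The *Tet iTKO* libraries lay close together, with a coefficient of variation of 0.95%, and all lay below the *Ctrl* libraries, which varied by 3.35%. The fall was 0.41 on the log2 scale (standard error 0.07, 95% interval -0.55 to -0.27, limma adjusted p = 1.6e-05). The corrected value was -0.36 (limma adjusted p = 1.2e-04). The gene (ENSMUSG00000025056.4) lies on chromosome X from 86191764 to 86195947.

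*Nr5a2*, a receptor that can sustain *Pou5f1* expression, was the lowest of the 10 by normalized count, with 67, 74 and 47 among *Ctrl* and 60, 65 and 64 among *Tet iTKO* libraries. The *Tet iTKO* values lay inside the range of the *Ctrl* values. The log2 fold change was 0.03 with a 95% interval from -0.45 to 0.51 (limma adjusted p = 0.93), so at this depth changes of the size seen for *Nr0b1* lay inside the interval. Leaving out *Ctrl* replicate 3 turned it to -0.16 (limma adjusted p = 0.67). *Nr5a2* (ENSMUSG00000026398.8) lies on chromosome 1 from 136842571 to 136960448.

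Among the genes that do not encode DNA-binding factors, *Fbxo15* stood at 1305, 1209 and 1246 normalized counts among *Ctrl* libraries against 976, 878 and 813 among *Tet iTKO* libraries. This F-box gene is a well-known target of OCT4 and SOX2 whose locus served as the first reporter for induced pluripotency. The lowest *Ctrl* library exceeded the highest *Tet iTKO* library. The fall of 0.50 on the log2 scale was the largest of the 10 genes (standard error 0.07, 95% interval -0.64 to -0.36, limma adjusted p = 4.2e-07), and it ranged from -0.57 to -0.44 with each line left out in turn, called in 6 of 6 fits. The corrected value was -0.29 (limma adjusted p = 0.0011). *Fbxo15* (ENSMUSG00000034391.9) lies on chromosome 18 from 84934782 to 84981473, and *Timm21* lies within this span on the opposite strand, without a shared exonic base.

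*Tcl1* stood at 327, 382 and 399 normalized counts among *Ctrl* libraries against 372, 388 and 333 among *Tet iTKO* libraries, with each group spanning nearly the same range. Its log2 fold change was -0.02 with a 95% interval from -0.22 to 0.19 (limma adjusted p = 0.92), and it was 0.22 with the correction for GC content and length (limma adjusted p = 0.11). *Tcl1* (ENSMUSG00000041359.7) lies on chromosome 12 from 105216750 to 105222793.

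*Tdh* was the highest of the 10 by normalized count, with 7399, 7692 and 7452 among *Ctrl* and 7220, 7220 and 7664 among *Tet iTKO* libraries. The third *Tet iTKO* line lay among the *Ctrl* values and the other two lay below them. Its log2 fold change of -0.03 had the narrowest 95% interval of the 10 genes, from -0.11 to 0.05 (limma adjusted p = 0.62). Its direction turned with the scaling, to 0.22 with quantile normalization, where it passed (limma adjusted p = 1.3e-05), and to 0.063 with the correction for GC content and length (limma adjusted p = 0.21). *Tdh* (ENSMUSG00000021953.8) lies on chromosome 14 from 63492347 to 63509092, and its exons share 66 bases with *Gm17232* on the opposite strand, which is not used here.

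**Figure D2:**
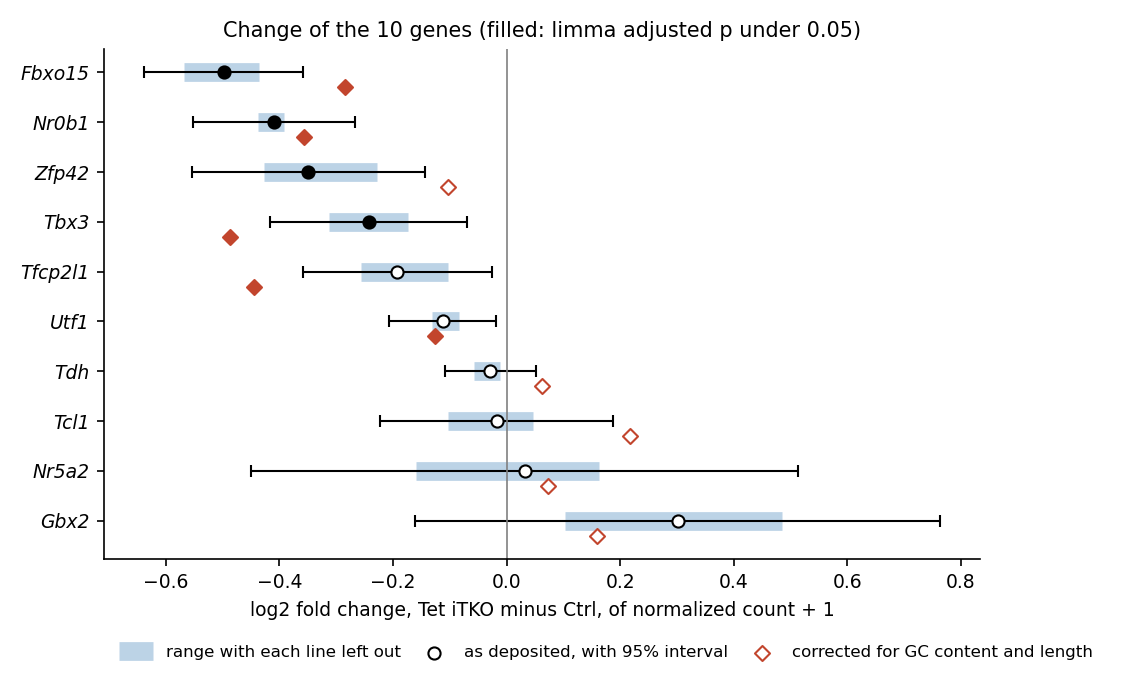
The horizontal axis gives the log2 fold change of normalized count + 1, *Tet iTKO* minus *Ctrl*. Black circles with 95% intervals are the deposited values, blue bars span the fits with each line left out in turn, and red diamonds are corrected for GC content and length, filled where the limma adjusted p was under 0.05. *Fbxo15* and *Nr0b1* are filled on both scales, *Zfp42* moves from -0.35 to -0.10 and loses its call, and *Tfcp2l1* moves from -0.19 to -0.44 and gains one.

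Across the alternatives tried, a fold threshold aside, *Fbxo15* and *Nr0b1* were called lower in 18 of 18, whereas *Zfp42* lost its call in 6 and *Tbx3* in 7. *Tfcp2l1* gained a call in 7 and *Utf1* in 6. With the correction for GC content and length, 5 members were called lower and 0 higher by limma, against 14.0% and 12.5% of all 10457 genes, and the median log2 fold change of the 10 genes was -0.11. A requirement of at least 1 on the log2 scale left no member.

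Levels of different genes were set side by side per kilobase of exon length. In *Ctrl* mESC, *Utf1* came first at 3056 ± 108 (SD, n = 3) normalized counts per kb and *Tdh* next at 2874 ± 59.7 (SD, n = 3), and *Nr5a2* came last at 10.6 ± 2.38 (SD, n = 3), a 288-fold range. Between them stood *Nr0b1* at 515 ± 17.2 (SD, n = 3), *Fbxo15* at 373 ± 14.4 (SD, n = 3), *Zfp42* at 233 ± 8.61 (SD, n = 3) and *Tcl1* at 200 ± 20.4 (SD, n = 3). *Tbx3* at 96.4 ± 9.28 (SD, n = 3), *Tfcp2l1* at 73.8 ± 3.94 (SD, n = 3) and *Gbx2* at 30.9 ± 7.03 (SD, n = 3) followed. *Utf1* and *Tdh* thus exceeded 99.5% and 99.4% of the 10457 tested genes with a known length, while *Nr5a2* exceeded 27.9%.

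No neighbours in this order overlapped over the *Ctrl* libraries, although *Utf1* and *Tdh* differed only 1.06-fold. In *Tet iTKO* mESC the order was the same except that *Tcl1*, at 197 ± 15.3 (SD, n = 3) normalized counts per kb, stood above *Zfp42*, at 184 ± 26.1 (SD, n = 3). *Tcl1* and *Zfp42* overlapped there and did not differ beyond their spread, nor did *Utf1* at 2826 ± 53.8 (SD, n = 3) and *Tdh* at 2818 ± 98.0 (SD, n = 3). Dividing by the length of the longest transcript instead put *Tdh* first and *Tcl1* above *Zfp42* in both groups.

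**Figure D3:**
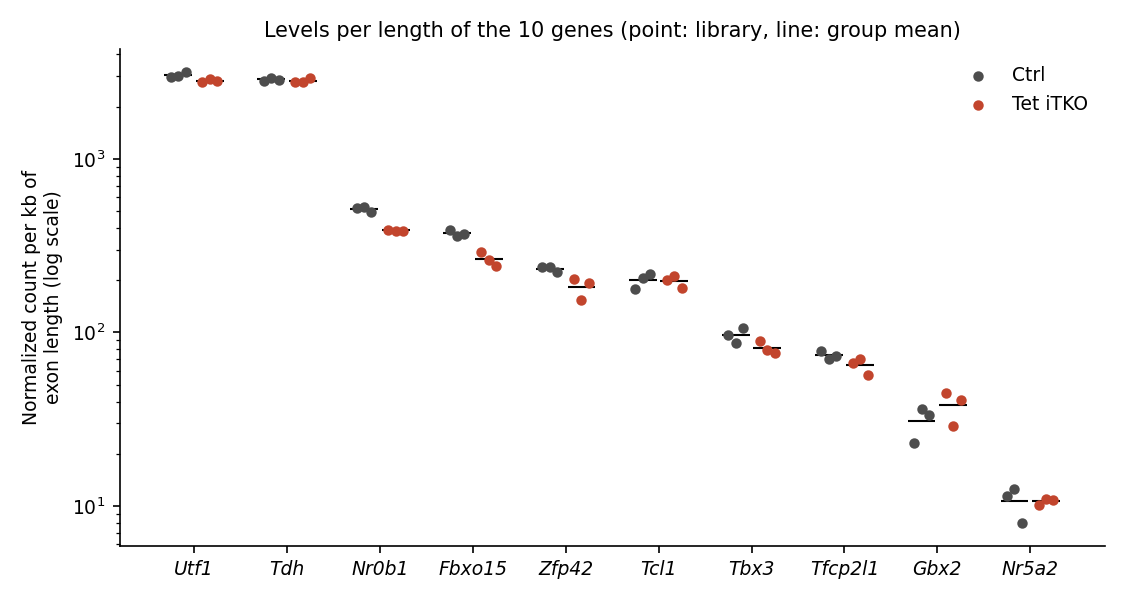
The vertical axis, on a log scale, gives normalized counts per kb of exon length for the 10 genes, with 1 point per library and a line at the group mean. *Utf1* and *Tdh* stand together at the top, 5.58-fold or more above *Nr0b1* in *Ctrl* mESC, and *Tcl1* and *Zfp42* exchange places between the groups.

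Another 27 genes of the naive network, from the core factors to *Dppa* genes, were examined in the same fit. Of these, 8 fell and 7 rose, or 29.6% and 25.9%, against 18.4% and 16.4% of all genes tested. The median log2 fold change of the 27 was 0.03, against -0.15 for the 10 genes above. The largest falls were those of *Dppa4* (-0.40, limma adjusted p = 3.2e-05), *Dppa5a* (-0.39, limma adjusted p = 4.1e-10), *Stat3*, the transducer of LIF (-0.37, limma adjusted p = 0.0031), and *Nanog* (-0.30, limma adjusted p = 3.8e-04). Genes that rose included *Klf4* (0.32, limma adjusted p = 0.0032), *Dppa3* (0.31, limma adjusted p = 0.021) and *Esrrb* (0.29, limma adjusted p = 3.0e-04). The call of *Dppa3* was lost without *Ctrl* replicate 1 (0.23), *Tet iTKO* replicate 1 (0.27) or *Tet iTKO* replicate 2 (0.31). Rises and falls were nearly balanced in this list, while the 10 genes showed falls and no rise, and the difference between the lists was not tested. After the same correction, 4 of the 27 were called higher and 3 lower, against 12.5% and 14.0% of all genes. *Dppa5a* turned to 0.15 (limma adjusted p = 0.0013), and *Dppa4*, *Nanog*, *Klf4* and *Esrrb* were no longer called.

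Of 17 formative and primed genes, which come on as cells leave the naive state, 16 were in the files and 11 were tested. Among these 7 rose and 0 fell, beside 16.4% and 18.4% of all genes tested. By limma, 8 of the 11 had an unadjusted p under 0.05 and were higher, and 0 were lower, beside 21.4% and 22.3% of all genes tested. *T*, a mesoderm and primitive streak factor, stood at 0, 12 and 1 normalized counts among *Ctrl* libraries against 24, 26 and 24 among *Tet iTKO* libraries. It rose by 3.11 (limma adjusted p = 9.7e-04), ran from 2.33 without *Ctrl* replicate 1 to 4.18 without *Ctrl* replicate 2, and lost its call without the variance trend (limma adjusted p = 0.061). *Sall2* rose by 2.77 (limma adjusted p = 1.9e-11), *Lef1*, an effector of WNT signals, by 1.23 (limma adjusted p = 3.2e-09) and *Otx2* by 0.81 (limma adjusted p = 0.036). The call of *Otx2* was kept in 1 of the 6 fits with a line left out, that without *Tet iTKO* replicate 1. *Fgf5*, a widely used marker of the formative state, had 1 to 3 normalized counts in *Ctrl* and 1 to 5 in *Tet iTKO* mESC and was not tested. After the same correction, 5 of the 11 were called higher and 1 lower, beside 12.5% and 14.0% of all genes. The gene called lower, *Dnmt3a*, turned from 0.25 (limma adjusted p = 0.0012) to -0.17 (limma adjusted p = 0.030). *Dnmt3b*, which had risen by 0.24, lost its call (0.07, limma adjusted p = 0.31).

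**Figure D4:**
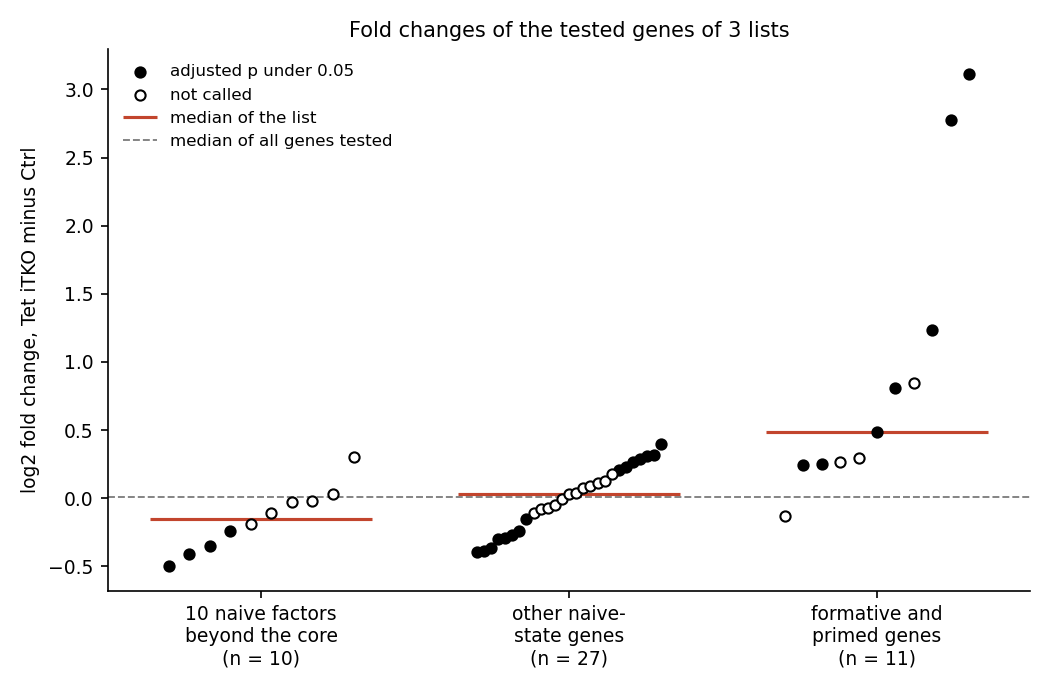
The vertical axis gives the log2 fold change, *Tet iTKO* minus *Ctrl*, with 1 point per tested gene, ordered by value within each of 3 lists and filled where the limma adjusted p was under 0.05. Red lines mark list medians of -0.15, 0.03 and 0.49, and the dashed line marks the median of all genes tested, 0.01.

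Paralogs of the 10 genes were mostly listed at or near 0. Of the 13 examined, 7 were listed at 0 in all 6 libraries, namely *Yy2*, *Nr5a1* and *Tcl1b1* to *Tcl1b5*, and *Tbx2*, *Gbx1* and *Nr0b2* had at most 5 normalized counts. The 3 that were tested did not pass by limma, at an unadjusted p under 0.05 either. *Yy1*, related to *Zfp42*, stood at -0.29 on the log2 scale (limma adjusted p = 0.13), and the relatives of *Tfcp2l1*, *Ubp1* and *Tfcp2*, at 0.18 (limma adjusted p = 0.17) and -0.24 (limma adjusted p = 0.68). *Yy1* was called lower after correction for GC content and length (-0.51, limma adjusted p = 0.0097).

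Partners of the proteins were measured alongside. F-box proteins such as FBXO15 work in SCF ubiquitin ligases, and of the subunits, *Rbx1* fell by 0.95 (limma adjusted p = 5.4e-11) and *Skp1a* by 0.46 (limma adjusted p = 2.2e-08), while the scaffold *Cul1* had a log2 fold change of -0.21 and did not pass (limma adjusted p = 0.091). *Gcat*, which acts after TDH on threonine, had -0.10 (limma adjusted p = 0.30), and *Gldc*, which cleaves the glycine made there, had -0.07 (limma adjusted p = 0.59). The AKT kinases that TCL1 binds had 0.14 for *Akt1* (limma adjusted p = 0.47) and -0.24 for *Akt2* (limma adjusted p = 0.15). Of these 7 partners, 2 were thus called lower, beside 18.4% of all genes tested. Once corrected for GC content and length, 4 were called lower, *Rbx1*, *Skp1a*, *Gcat* and *Akt2*, beside 14.0% of all genes.

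Within 100 kb of the 10 genes the annotation lists 53 other genes, of which 22 were in the files and 8 were tested, next to 5 of the 10. Of the 8 tested, 3 were called lower and 2 higher, beside 18.4% and 16.4% of all genes tested. *Tubgcp2*, *Zfp511* and *Mtmr9* did not pass (limma adjusted p = 0.31, 0.76 and 0.60). *Cyb5a*, 54911 bases from *Fbxo15*, stood at 391, 442 and 438 normalized counts among *Ctrl* libraries against 270, 275 and 267 among *Tet iTKO* libraries and fell by 0.64 (limma adjusted p = 3.0e-06). *Timm21*, inside the span of *Fbxo15*, had 81, 79 and 79 and then 40, 43 and 52, and fell by 0.82 (limma adjusted p = 0.0063). Both tested neighbours of *Fbxo15* thus fell with it, in groups that did not overlap, as was so for 44.1% of all genes tested. The corrected log2 fold changes were -0.31 for *Cyb5a* (limma adjusted p = 0.015) and -0.56 for *Timm21* (limma adjusted p = 0.080). *Kndc1*, 2252 bases from *Utf1*, stood at 18, 21 and 32 normalized counts among *Ctrl* libraries against 10, 2 and 12 among *Tet iTKO* libraries and fell by 1.67 (limma adjusted p = 0.019), a call lost without *Ctrl* replicate 3 (-1.44, limma adjusted p = 0.097) or without *Tet iTKO* replicate 2 (-1.004, limma adjusted p = 0.15).

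*Clasp1*, 15267 bases from *Tfcp2l1*, rose by 0.62 (limma adjusted p = 0.0036) and *Agap1*, 30339 bases from *Gbx2*, by 0.62 (limma adjusted p = 0.017). Both have long transcripts, and neither was called with the correction for GC content and length, at 0.28 (limma adjusted p = 0.22) and 0.12 (limma adjusted p = 0.72). The call of *Agap1* was also lost without *Ctrl* replicate 1 (0.50), *Tet iTKO* replicate 1 (0.61) or *Tet iTKO* replicate 2 (0.61). By chromosome, the median log2 fold change of tested genes lay between -0.08 and 0.07 over 20 chromosomes, and between -0.08 and 0.04 over the 8 that carry the 10 genes. The falls of *Fbxo15*, *Nr0b1*, *Zfp42* and *Tbx3* exceeded the medians of chromosomes 18 (-0.05), X (-0.08), 8 (0.02) and 5 (0.03).

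Some marker genes of other cells differed between the groups and others did not. Of the mESC markers, *Pou5f1* averaged 5490 ± 299 (SD, n = 3) among *Ctrl* libraries against 4489 ± 249 (SD, n = 3) among *Tet iTKO* libraries. *Epcam*, whose protein was used in the sort, rose by 0.45 (limma adjusted p = 4.5e-06). *Fut4* stood at 0 to 2 counts in all libraries and was not tested, so nothing is drawn from it. The 12 feeder fibroblast markers summed to 347 to 361 normalized counts in *Ctrl* and 565 to 631 in *Tet iTKO* libraries. Of the 6 tested, 3 rose, *Col1a1* by 0.89, *Col1a2* by 1.17 and *Col3a1* by 1.36 (limma adjusted p from 4.1e-07 to 3.3e-04). *Col1a1* alone averaged 167 normalized counts in *Ctrl* and 311 in *Tet iTKO* libraries. *Tagln* stood at 0.90 (limma adjusted p = 0.056) and *Acta2* at -0.11 (limma adjusted p = 0.79). *Thy1*, the gene of the sorted-out surface protein, stood at -0.19 (limma adjusted p = 0.69). Of the 6 not tested, *Dcn*, *Lum*, *Pdgfrb* and *Prrx1* had lower means in *Tet iTKO* than in *Ctrl* libraries. *Postn* and *Twist2* had at most 3 counts everywhere.

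The 6 markers of 2-cell-like cells found in the files summed to 12 to 23 normalized counts in *Ctrl* and 132 to 155 in *Tet iTKO* libraries, and the 4 tested rose, led by *Zscan4c* at 3.60 (limma adjusted p = 1.1e-05). *Zscan4* copies are near-identical, so their unique alignments are uncertain, and *Zfp352* and *Duxf3* had at most 3 counts in each library. The 7 primitive endoderm markers summed to 44 to 49 and 59 to 92, and of the 3 tested *Gata4* was called higher (1.64, limma adjusted p = 0.030). That call was lost with the correction for GC content and length (1.39, limma adjusted p = 0.080) and without *Ctrl* replicate 1 (1.09), *Tet iTKO* replicate 1 (1.57) or *Tet iTKO* replicate 3 (1.40), and *Sox7* had a mean of 16 in *Ctrl* and 6.67 in *Tet iTKO* libraries without passing (-1.19, limma adjusted p = 0.15). The 8 trophoblast markers summed to 762 to 834 and 642 to 683, most of it *Tfap2c*, which is also expressed in mESC and fell by 0.27 (limma adjusted p = 0.0065). All 3 tested had a negative log2 fold change, and *Plet1* (-0.30, limma adjusted p = 0.40) and *Ascl2* (-0.58, limma adjusted p = 0.40) did not pass. *Gata3* averaged 7 in *Ctrl* and 4.33 in *Tet iTKO* libraries, too few to be tested. *Cdx2* and *Hand1* were listed at 0 in all *Ctrl* libraries. In the *Tet iTKO* libraries they had 1, 5 and 2 and 6, 5 and 6 normalized counts, also too few to be tested. *Elf5* had at most 1 count, and *Tpbpa* was listed at 0 in all 6 libraries. The part of such cells in the falls of *Fbxo15*, *Nr0b1*, *Zfp42* and *Tbx3* was not tested.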

How the data were processed

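RNA from sorted mESC was made into Smart-Seq2 libraries and sequenced as paired reads. The authors aligned reads with STAR, keeping unique alignments, to mm9 as listed in the submitters' processing notes. They counted reads per gene with HTSeq 0.7.1, with its strand option on, and normalized the counts with DESeq2 1.26.0 in R 3.5.2. The annotation release was not given in the sources used here. The deposited values are treated as a score, since they are normalized counts rounded to whole numbers. Read depth is therefore not taken from them.

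Of 22380 gene identifiers, 20775 matched GENCODE M21 (GRCm38), which gave symbols, lengths, GC content and positions, and 1605 had no symbol. The comparison of groups used limma 3.58.1 under R 4.3.3 (lmFit, then eBayes with trend) on log2(value + 1), kept the 10524 genes averaging 10 or more and applied Benjamini-Hochberg adjustment over all of them. The 1 added before taking log2 understates changes of low genes. For values of single libraries, a count of 3 was taken as the floor, which covers counting error only. Other steps ran in pandas 2.3.3 and NumPy 2.4.6 under Python 3.11.15. On simulated data, the test recovered 19 of 66 genes changed by 0.5, 56 of 65 by 1 and 65 of 65 by 2 on the log2 scale. It also called 18 unchanged genes, with 10508 genes tested in all. These false calls are to be weighed against the recovered genes, not against all genes tested. Far fewer genes were changed in the simulation than the 3665 called in the data. Every simulated gene also had the same dispersion, which was not estimated from these libraries. The rates of the simulation may therefore not carry over, in either direction.

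The correction fitted, in each library, deviations from the gene mean on GC content and log2 length by robust local linear loess (span 0.3). Least squares and local quadratic versions were added once the data had been seen. Alternatives to the main settings were other pseudocounts (0.5 and 4), other filters on the mean, rescaling by trimmed means, eBayes with no trend, quantile normalization, a replicate block, a fold threshold and fits without each line. Lines with the same replicate number did not deviate together (correlations of 7.06e-04, -0.00543 and -0.00314), so no pairing was used.

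All 10 genes were named. Of the other lists, up to 4 called genes with the largest change in each direction, all paralogs and partners with a mean of at least 10, and neighbours called with a change of at least 0.5 were named. Other genes were named after their values were seen. A gene that this rule would name is not reported here. The members and lists were chosen with earlier results of these data known.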

Additional observations from a re-analysis of the deposited data

How the results depend on the processing

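*Fbxo15* and *Nr0b1* stayed called lower under every alternative without a fold threshold. The number of members called lower was 2 without the variance trend (*Nr0b1* and *Fbxo15*), 0 with a fold change of at least 1 on the log2 scale, and 3 to 4 with each line left out. A replicate block gave 6 members lower, adding *Tfcp2l1* (limma adjusted p just under the threshold of 0.05) and *Utf1* (limma adjusted p = 0.041), and 1762 genes higher and 1980 lower. Quantile normalization called 1 member higher, *Tdh* (0.22, limma adjusted p = 1.3e-05), and turned *Utf1* to 0.045, *Tcl1* to 0.048, *Nr5a2* to -0.077 and *Gldc* to 0.026.

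Over all genes, 1075 were higher and 1217 lower without the trend, and 521 and 137 with the fold threshold. Calls were 47.2% higher in the main comparison, 1014 genes or 32.9% with the least squares correction, whose median log2 fold change was -0.06, and 1335 to 1635 higher and 1642 to 1722 lower with each line left out. The correction for GC content and length, with or without the replicate block, turned *Tcl1* to 0.22, *Tdh* to 0.063, *Dppa5a* to 0.15 and *Akt1* to -0.11. Its least squares version gave 0.13 for *Tcl1*, 0.15 for *Dppa5a*, -0.045 for *Esrrb*, -0.27 for *Akt1* and -0.037 for *Agap1*. The local quadratic version gave 0.23 for *Tcl1*, 0.068 for *Tdh*, 0.11 for *Dppa5a* and -0.12 for *Akt1*. With each line left out, *Tcl1* ran from -0.10 to 0.046, *Nr5a2* from -0.16 to 0.16 and *Tfcp2* from -0.66 to 0.053.

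Of the other naive-state genes, 11 were higher and 5 lower with quantile normalization, 1 and 2 without the trend, 4 and 3 with the correction, with or without the block, and 3 higher with the least squares or quadratic version, the latter with 3 lower. Of the formative and primed genes, 3 were higher without the trend, and 1 was lower with the correction, with or without the block, or by least squares. No neighbour was higher with any of the 4 corrections (0), and 1 to 2 were with each line left out. The cause of these differences was not tested. The rounded values carry no read depth, and the intervals of *Gbx2* and *Nr5a2* span more than 0.9 on the log2 scale.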
